A study of Mus musculus with 6 samples.

Results

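The RNA of T and B lymphocytes in the mouse cardiac side population (SP), the heart cells that pump out the dye Hoechst, was followed through 33 genes. These were 22 T cell genes and 11 B cell genes chosen by name, of 50600 genes in the table, and no expression filter was applied to them. Of the 33 genes, 27 are protein-coding and 6 are constant genes of antigen receptors. The 6 libraries came from sorted SP cells of wt mice (3 libraries) and of mice labelled flt3L-/- (3 libraries), and they address how gene expression differs when the growth factor Flt3 ligand is missing. Each library held the sorted cells of 4 mice, and the libraries form 3 pairs, each with 1 wt sort and 1 sort labelled flt3L-/- of the same sorting date. The wt mice were C57BL/6NRj, and the methods name the others C57BL/6Flt3Ltml/mx, without a substrain of C57BL/6. All mice were untreated and 8 to 12 weeks old. Cardiomyocytes and erythrocytes had been depleted, and the methods name no gate on CD45, the surface protein of leukocytes, for the sequenced sorts. The knock-out is one of the whole animal and not of the heart alone.

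T cells recognise antigen with a receptor made of an alpha and a beta chain, which reaches the surface only together with the CD3 chains. CD4 or CD8 bring the kinase Lck to this complex, and Zap70 and Lat pass the signal on. B cells recognise antigen with membrane immunoglobulin, which signals through Cd79a and Cd79b. Flt3 ligand acts on bone marrow progenitors from which dendritic cells, NK cells and lymphocytes arise.

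Total counts per library lay between 24370913 and 31145519, and 3 counts, used here as a floor, were worth between 0.109 and 0.127 CPM, the read count scaled to the size of the library. Flt3l, the gene behind the labels, was read in every library. It had 8.67, 10.8 and 12.1 CPM in wt pairs 1, 2 and 3, and 13.6, 12.4 and 14.4 CPM in libraries labelled flt3L-/-. Every library labelled flt3L-/- was above every wt library, where the label names a loss of the gene. The log2 fold change was 0.37 ± 0.20 (SE), with an unadjusted p of 0.12 and an adjusted p of 0.97 in edgeR's quasi-likelihood test. Counts per gene do not show which exons were read, so they cannot check a targeted allele. Every direction below is that of the libraries as labelled. Leukocyte RNA differed widely between libraries of 1 group. The summed level of 8 markers shared by leukocytes was 232, 710 and 1535 CPM in wt and 285, 764 and 183 CPM in libraries labelled flt3L-/-. The wt library of pair 1 stood apart in neutrophil markers, with a sum of 1.98 CPM against 113 and 131 CPM in the other wt libraries. So did the library labelled flt3L-/- of pair 3, with 8.23 CPM against 172 and 244 CPM in the others of its group. The 7 endothelial markers summed to between 6407 and 8260 CPM in all 6 libraries.

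The 2 constant genes of the beta chain, Trbc1 and Trbc2, lie beside each other on chromosome 6 and are nearly the same, which limits what their counts can say. Their coding sequences of 518 bases were identical at 495 positions (95.56%), with 1 difference in the 375 bases of the first exon. Of the 438 stretches of 81 bases in Trbc1, the length of a read, 221 (50.5%) were also found in Trbc2. Reads that match both genes equally well were placed at random by the authors. The lines below give the stretch around the difference in the first exon (GRCm38, plus strand, chr6:41538437-41538517 in Trbc1 and chr6:41546949-41547029 in Trbc2), then the 143 coding bases after that exon, joined over introns (within chr6:41539114-41539662 and chr6:41547610-41548178). Capitals mark the bases that differ, 1 in the stretch of the first exon and 22 after it.
Trbc1, first exon: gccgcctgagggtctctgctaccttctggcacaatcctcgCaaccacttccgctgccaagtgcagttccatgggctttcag
Trbc2, first exon: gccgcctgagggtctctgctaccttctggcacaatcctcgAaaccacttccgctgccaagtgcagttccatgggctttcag
Trbc1, after the first exon: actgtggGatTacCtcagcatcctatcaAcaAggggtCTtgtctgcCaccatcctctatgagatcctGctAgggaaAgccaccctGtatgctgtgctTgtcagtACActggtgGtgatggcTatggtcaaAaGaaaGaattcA
Trbc2, after the first exon: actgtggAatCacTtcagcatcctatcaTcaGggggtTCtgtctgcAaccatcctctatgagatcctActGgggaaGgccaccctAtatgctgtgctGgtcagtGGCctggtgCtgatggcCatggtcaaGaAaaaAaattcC

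The genes of the 3 CD3 chains lie within 1 short stretch of chromosome 9, where Cd3g and Cd3d are read in opposite directions away from a shared upstream region. Their upstream sequence is shown because these genes are the reference for other T cell genes in a later comparison. The lines below give up to 250 bases before the start of each gene, from RefSeq promoter windows of GRCm38.p6: Cd3d on the plus strand (chr9:44981536-44981785), Cd3e on the minus strand (chr9:45009628-45009861) and Cd3g on the minus strand (chr9:44980432-44980681). Capitals mark matches on either strand to the ETS core AGGAAG, the TCF/LEF motif CTTTGA or the RUNX motif TGTGGT.
Cd3d: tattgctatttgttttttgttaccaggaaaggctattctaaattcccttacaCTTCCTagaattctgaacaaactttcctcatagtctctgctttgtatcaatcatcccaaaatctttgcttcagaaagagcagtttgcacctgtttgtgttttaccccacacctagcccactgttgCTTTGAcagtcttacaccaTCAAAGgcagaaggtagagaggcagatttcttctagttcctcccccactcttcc
Cd3e: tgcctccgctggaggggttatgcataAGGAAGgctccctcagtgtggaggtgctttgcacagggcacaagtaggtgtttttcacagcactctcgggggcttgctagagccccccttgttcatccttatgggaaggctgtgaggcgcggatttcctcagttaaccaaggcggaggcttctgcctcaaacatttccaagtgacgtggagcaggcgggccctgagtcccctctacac
Cd3g: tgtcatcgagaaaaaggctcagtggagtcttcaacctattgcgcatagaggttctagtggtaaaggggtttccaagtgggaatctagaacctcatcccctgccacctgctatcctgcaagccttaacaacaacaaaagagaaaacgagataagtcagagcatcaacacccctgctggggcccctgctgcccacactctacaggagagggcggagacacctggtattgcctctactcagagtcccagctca

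Cd3d held 1 ETS core and 2 TCF/LEF matches, Cd3e held 1 ETS core, and Cd3g held none of these letters in its window. RefSeq windows, which run from before to just after the start, were found for 18 of the 33 genes. The ETS core was in 64.7% of 17 windows of 13 T cell genes and in 60% of 5 windows of 5 B cell genes, against 35.4% of all 32851 windows. The RUNX motif was in 23.5% of the T cell windows and the TCF/LEF motif in 29.4%, against 16.8% and 16% of all windows, and neither was in a B cell window. The octamer ATGCAAAT was in none of the windows of either list and in 1.74% of all, and the EBF motif CCCNNGGG was in 17.6% of the T cell, 40% of the B cell and 13.7% of all windows. These are counts of letters on both strands and not of bound sites.

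All 22 T cell genes were read in all 6 libraries, with between 6 counts for Cd4 and Cd5 and 5037 counts for Il2rb. On a per-length scale the beta chain gene Trbc2 had the highest mean level, followed by Trac of the alpha chain at 20.8, Trbc1 at 19.3, Il2rb at 17.3 and Lck at 15.6 CPM per kb of exon. The lowest mean levels were those of the transcription factor gene Bcl11b at 0.442, Cd5 at 0.591 and Cd4 at 0.763 CPM per kb. The range within 1 gene exceeded most distances between genes: Trbc2 ran from 7.87 to 63.7 CPM per kb and Lck from 7.41 to 29.9 CPM per kb, so neighbours in this order were not set apart. In 17 of the 22 genes the wt library of pair 3 was the highest of all 6, as in 14.2% of all genes tested, and in 17 the wt library of pair 1 was the lowest, as in 23.3% of all genes tested.

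**Figure D1:**
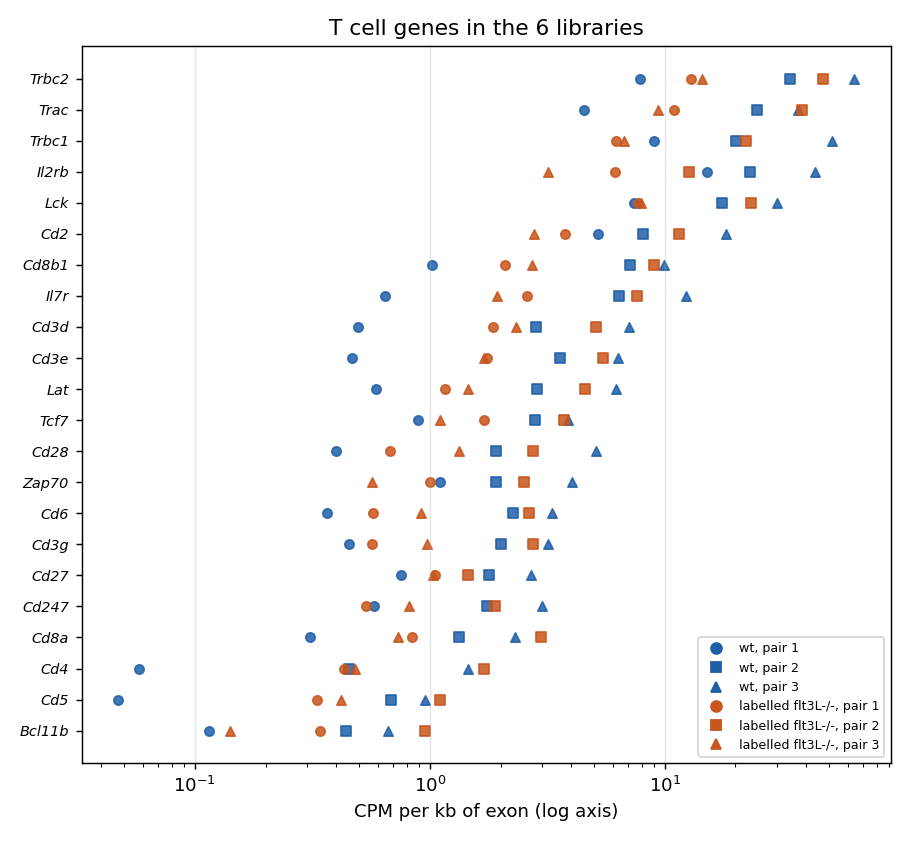
Level of the 22 T cell genes in each library, in CPM per kb of exon on a log axis, with genes ordered by their mean. Each point is 1 library, coloured by group and shaped by pair, and the blue triangle (wt, pair 3) is rightmost in 17 of 22 genes.

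No T or B cell gene differed between the groups at an adjusted p under 0.05 in edgeR's quasi-likelihood test with the sorting date as a block. Nor did any of the 13475 genes tested (0%). The paper does list genes at an adjusted p under 0.05, from an earlier version of edgeR, and no T or B cell gene studied here is among them. The reason for this difference was not tested. At an unadjusted p under 0.05, 149 of the genes tested here (1.11%) were higher and 335 (2.49%) lower in libraries labelled flt3L-/-. DESeq2 called 21 genes, none of them a T or B cell gene. The test covered 19 T cell genes and 1 B cell gene. Of these 20, 2 had an unadjusted p under 0.05, and both were lower: Il2rb and Cd72. The median log2 fold change of the 19 T cell genes was -0.15, against -0.00027 over all genes tested, and single values ran from -1.92 for Il2rb to 1.05 for Cd4. When 1 pair was left out, the fold change of 17 of the 20 genes changed sign at least once, and those of Il2rb, Cd4 and Cd72 did not. The other 13 genes did not pass the filter of the test. In a fit of all 36494 genes with a read, none of the 13 had an unadjusted p under 0.05, while 2.29% of genes were lower and 0.784% higher at that level and 0.00822% were called.

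The direction of the T cell genes instead differed between the pairs. Within pair 1, 17 of the 22 were higher in the library labelled flt3L-/- (54.1% of all genes tested), within pair 2, 20 were higher (50.4%), and within pair 3 all 22 were lower (48.8%). In pair 3 each of the 22 was lower by more than 1 on the log2 scale, as were 10.6% of all genes tested. The median log2 difference over the 22 genes was 0.83 in pair 1, 0.46 in pair 2 and -1.90 in pair 3. The medians over all genes tested were 0.040, 0.0035 and 0.014.

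**Figure D2:**
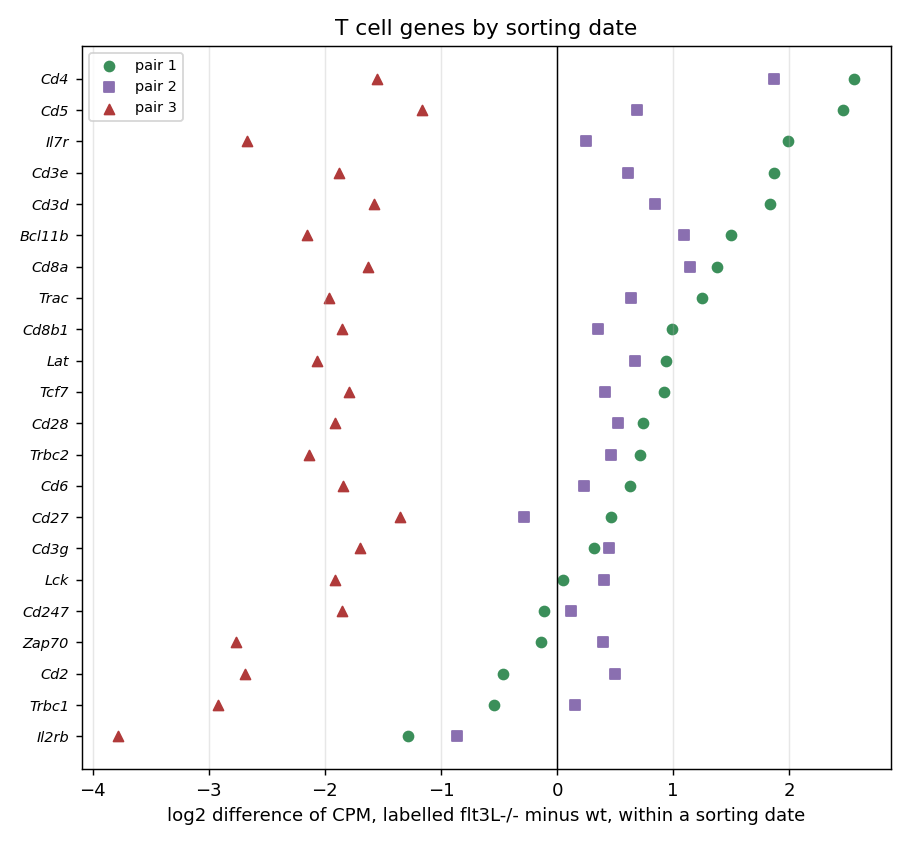
Log2 difference of CPM between the library labelled flt3L-/- and the wt library of the same sorting date, for each T cell gene, with 1 point per pair. All 22 triangles (pair 3) lie left of -1, while most points of pairs 1 and 2 lie right of 0, and Il2rb alone has all its points left of 0.

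The summed level of the 22 T cell genes was 141, 371 and 689 CPM in wt and 141, 430 and 132 CPM in those labelled flt3L-/-. The groups overlapped, and both libraries of pair 1 had nearly the same sum. The log2 ratio of the sums was 0.0024, 0.21 and -2.39 in pairs 1, 2 and 3, with a mean of -0.73 ± 1.45 (SD, n = 3 pairs). Without pair 3 the mean was 0.11, so its sign rested on that pair. Without Il2rb, which made up much of the sum, the mean was -0.34. In these bulk samples, fewer T cells and less RNA per T cell cannot be told apart. The leukocyte markers moved with these sums, with log2 ratios of 0.30, 0.11 and -3.07. Their part in the T cell values was not tested.

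The receptor chains showed the same pattern. Trac had 4.24, 23.0 and 34.5 CPM in wt and 10.2, 35.9 and 8.79 CPM in libraries labelled flt3L-/-. The groups overlapped fully, and the lowest and the highest library came from wt and from the pair 2 sort labelled flt3L-/-. Trbc2 had 5.44, 23.6 and 44.1 CPM in wt and 8.96, 32.5 and 9.97 CPM in the other group. Trbc1 had 6.76, 15.02 and 38.5 CPM in wt and 4.63, 16.7 and 5.03 CPM in the other group. Unlike Trac and Trbc2, it was lower in pair 1, by 0.54 on the log2 scale. Fitted without a filter, the log2 fold changes were 0.012 ± 0.52 (SE) for Trac, -0.29 ± 0.49 for Trbc2 and -1.08 ± 0.51 for Trbc1, with unadjusted p = 0.98, 0.57 and 0.064 and an adjusted p of 0.99 or more in edgeR's quasi-likelihood test. As the 2 beta genes share reads, a difference between them is uncertain.

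Cd3e, the CD3 epsilon chain and the defining T cell marker here, had 1.90, 14.6 and 25.9 CPM in wt and 7.18, 22.2 and 6.97 CPM in libraries labelled flt3L-/-. It was higher in pairs 1 and 2 and lower in pair 3, and both groups covered much the same range. Its log2 fold change was 0.22 ± 0.80 (SE). Cd3d, the delta chain, had 0.894, 5.12 and 12.8 CPM in wt and 3.39, 9.25 and 4.23 CPM in the other group, with a log2 fold change of 0.39 ± 0.76. Cd3g, the gamma chain, had 1.48, 6.56 and 10.4 CPM in wt and 1.86, 8.95 and 3.17 CPM in the other group, with a log2 fold change of -0.30 ± 0.54. The 3 chains of the complex thus had small fold changes with errors larger than the changes. Without the sorting date in the model, the values of Cd3d and Cd3e changed sign, to -0.16 and -0.22. Cd247, the zeta chain that NK cells also use, had 3.07, 9.31 and 15.9 CPM in wt and 2.84, 10.1 and 4.35 CPM in the other group. It shares 60.3% of its exon bases with Pou2f1 and Gm16565, whose reads cannot be told apart from its own in these libraries without strand.

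Among the coreceptors, Cd4 of helper T cells had the widest spread. It had 0.233, 1.82 and 5.85 CPM in wt and 1.75, 6.87 and 1.94 CPM in libraries labelled flt3L-/-. The lowest value, of wt pair 1, came from 6 reads. Its log2 differences were 2.55, 1.87 and -1.55, and its log2 fold change of 1.05 ± 1.02 (SE) was the most positive among the T cell genes tested. Cd8a of cytotoxic T cells had 1.13, 4.85 and 8.38 CPM in wt and 3.06, 10.8 and 2.65 CPM in the other group. Cd8b1, its partner chain, had 1.52, 10.5 and 14.8 CPM in wt and 3.10, 13.4 and 4.04 CPM in the other group. The fold changes of both CD8 chains were smaller than their errors, at 0.36 ± 0.73 and -0.15 ± 0.64 on the log2 scale.

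Of the signalling genes, Lck had 21.7, 51.5 and 87.7 CPM in wt and 22.5, 68.2 and 23.2 CPM in libraries labelled flt3L-/-. Its 2 libraries of pair 1 were nearly equal, and the largest difference was that of pair 3. Zap70, the kinase that binds the phosphorylated CD3 chains, had 3.30, 5.70 and 12.03 CPM in wt and 2.99, 7.51 and 1.70 CPM in the other group. Lat, the adaptor that Zap70 phosphorylates, had 1.63, 7.92 and 17.2 CPM in wt and 3.21, 12.6 and 4.04 CPM in the other group. The groups overlapped for all of them, and the log2 fold changes were -0.46 ± 0.51 (SE), -0.78 ± 0.73 and -0.11 ± 0.72.

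The surface receptors that modulate the T cell response differed from each other most in pair 1. Cd5, which dampens receptor signals, had 0.233, 3.38 and 4.69 CPM in wt and 1.64, 5.47 and 2.06 CPM in the other group, a log2 difference of 2.47 in pair 1. Cd2, an adhesion receptor of T and NK cells, had 9.02, 14.1 and 31.6 CPM in wt and 6.52, 20.0 and 4.83 CPM in the other group, a log2 difference of -0.46 in pair 1. Cd6, a relative and genomic neighbour of Cd5 on chromosome 19, and the costimulatory receptor Cd28 were between them in pair 1, at 0.63 and 0.74. Cd27, another costimulatory receptor, was with Il2rb the only T cell gene lower in pair 2, by 0.28. The log2 fold changes of these receptors ran from -0.84 ± 0.68 (SE) for Cd2 to 0.61 ± 0.82 for Cd5. The transcription factor genes Tcf7 and Bcl11b, which set T cell identity, had log2 fold changes of -0.12 ± 0.62 and 0.25 ± 0.89 and were, like most T cell genes, higher in pairs 1 and 2 and lower in pair 3.

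Il2rb, the beta chain of the receptors for interleukins IL-2 and IL-15 and a gene that NK cells express strongly, differed from the other T cell genes. It had 64.6, 99.3 and 188 CPM in wt and 26.4, 54.5 and 13.6 CPM in libraries labelled flt3L-/-. Every wt library was above every library of the other group, the only such case among the 22 T cell genes, against 2.92% of all genes tested that were lower without overlap. None was higher without overlap, as 3.53% of all genes tested were. Il2rb was also the only T cell gene lower in each pair (11.5% of all genes tested), with log2 differences of -1.29, -0.86 and -3.78. Its log2 fold change was -1.92 ± 0.65 (SE) with an unadjusted p of 0.033 and an adjusted p of 0.97 in edgeR's quasi-likelihood test. DESeq2 gave an adjusted p of 0.087. Leaving out 1 pair at a time moved it between -2.55 and -1.08. Il7r, the receptor of the T cell survival factor IL-7 that is also found on innate lymphoid cells, had 2.99, 29.9 and 57.7 CPM in wt and 12.1, 35.5 and 8.98 CPM in the other group. Its fold change was -0.096 ± 1.004 on the log2 scale, with groups that overlapped.

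NK cell markers moved with Il2rb. All 12 were lower in each pair (11.5% of all genes tested), and 7 were lower without overlap between the groups (2.92%). In edgeR's quasi-likelihood test 8 were lower at an unadjusted p under 0.05 (2.49%). All 8 leukocyte markers were lower in pair 3 as well, so the 12 are not independent of each other. Their sum was 176, 310 and 683 CPM in wt and 86.5, 197 and 68.0 CPM in libraries labelled flt3L-/-. None of the 12 was called, with a median log2 fold change of -1.77. The 6 markers of type 2 innate lymphoid cells summed to 14.4, 11.1 and 16.1 CPM in wt. Their sums in the other group were 5.68, 8.15 and 5.18 CPM, without overlap between the groups. Klrg1 had the highest level of the 6 in every library, and its own groups overlapped. It had 5.37, 7.80 and 12.03 CPM in wt and 3.06, 5.43 and 3.28 CPM in the other group. Il1rl1 and Il17rb were each lower without overlap, while Il5 and Il13 had between 0 and 3 counts. The part of NK cells and type 2 innate lymphoid cells in the Il2rb value was not tested.

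**Figure D3:**
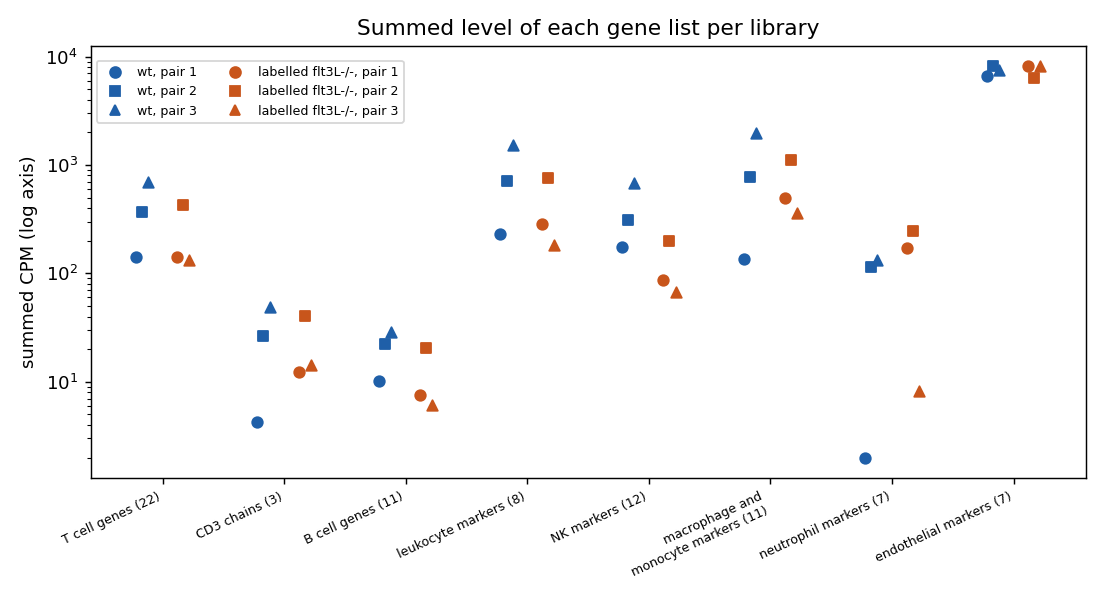
Summed CPM of each list in each library on a log axis, with the number of genes in parentheses, coloured by group and shaped by pair. The T cell, CD3, B cell and leukocyte sums overlap between the groups and are highest in the wt library of pair 3, while the endothelial sums stay between 6407 and 8260 CPM.

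Because most T cell genes shared the differences between sorts, each was also set against the summed level of Cd3d, Cd3e and Cd3g in the same library. This comparison was added with the values in view. The CD3 sum was 4.28, 26.2 and 49.1 CPM in wt and 12.4, 40.4 and 14.4 CPM in libraries labelled flt3L-/-. Relative to it, 6 of the other 19 T cell genes were lower without overlap between the groups (1.07% of all genes tested), and 2 were higher (0.0445%). The CD3 sum varied widely within each group, which lowers these shares over all genes. Of the 8 markers shared by leukocytes, 5 (62.5%) were also lower and 0 higher, so a lower ratio was not particular to T cell genes. The lower T cell genes were Il2rb, Cd2, Cd247, Trbc1, Trbc2 and Cd6. Il2rb stood at 15.1, 3.79 and 3.82 times the CD3 sum in wt and at 2.13, 1.35 and 0.948 times in the other group. Its libraries of the other group all lay below the wt range. An exact two-sided permutation test gives p = 0.1 for every gene without overlap between 3 and 3 libraries. It thus adds nothing to the lack of overlap, and it ignores the pairs.

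The 2 higher genes were Cd4 and Cd5. Cd4 stood at 0.0545, 0.0695 and 0.119 times the CD3 sum in wt and at 0.141, 0.170 and 0.135 times in the libraries labelled flt3L-/-. Cd5 stood at 0.0545, 0.129 and 0.0955 times in wt and at 0.132, 0.135 and 0.143 times in the other group. For Cd5 the gap between the groups was narrow, and for both genes the value of wt pair 1 came from 6 reads. Cd8a did not separate, at 0.264, 0.185 and 0.171 times in wt and 0.246, 0.268 and 0.185 times in the other group. The wt library of pair 1 had only 110 reads on the CD3 chains. Without pair 1, 9 of the 19 genes were lower (2.61%) and 2 higher (3.58%), and the 2 were again Cd4 and Cd5. All 12 NK markers were lower relative to the CD3 chains, with or without pair 1. Of 25 further T cell genes, 6 were lower and none was higher.

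**Figure D4:**
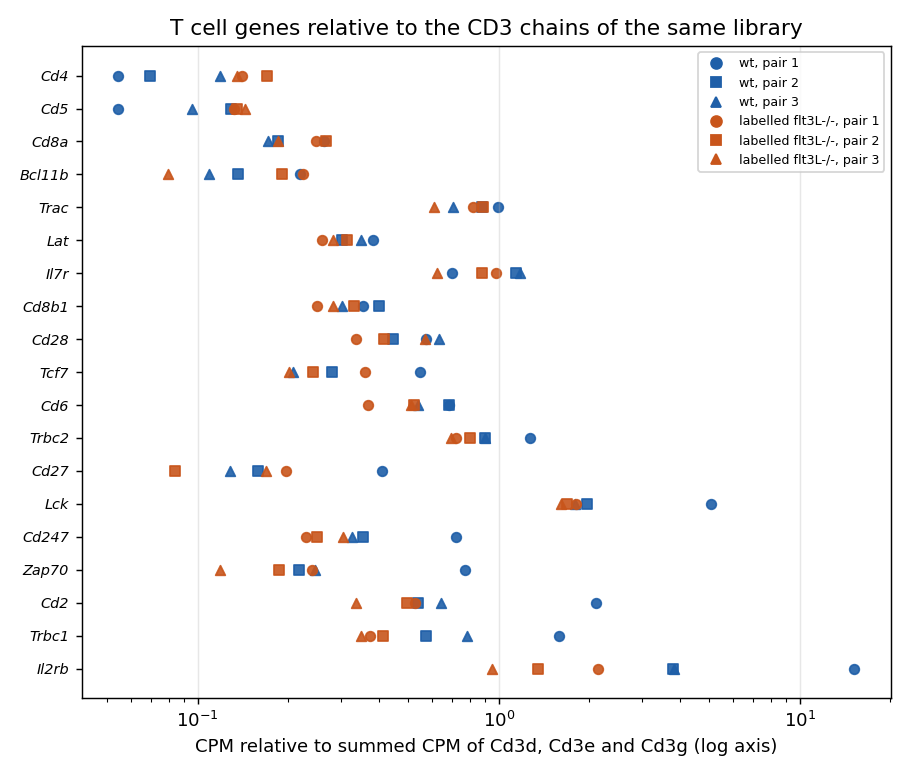
Level of 19 T cell genes relative to the summed CPM of Cd3d, Cd3e and Cd3g of the same library, on a log axis, with 1 point per library. For Il2rb at the bottom the wt points (3.79 to 15.1) lie to the right of the others (0.948 to 2.13), and for Cd4 and Cd5 at the top they lie to the left.

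Set against the 8 leukocyte markers, which T cells and NK cells share, many T cell genes were higher in libraries labelled flt3L-/-. This ratio was likewise added with the values in view. The CD3 sum was 1.84%, 3.69% and 3.20% of the leukocyte sum in wt and 4.36%, 5.29% and 7.85% in the libraries labelled flt3L-/-. All libraries of that group were above all wt libraries. The sum of all 22 T cell genes, which holds Il2rb, was 60.5%, 52.2% and 44.9% of the leukocyte sum in wt and 49.4%, 56.2% and 71.9% in the other group. This larger sum overlapped between the groups and was lower in pair 1. Of the 22 T cell genes, 10 were higher without overlap (0.779% of all genes tested) and 1, Il2rb, was lower (0.26%). The 10 were Cd3d, Cd3e, Cd4, Cd8a, Cd5, Lat, Tcf7, Bcl11b, Trac and Il7r. Cd3e alone was 1.98%, 5.90% and 4.35% of the count of Ptprc, the gene of CD45, in wt and 7.10%, 9.40% and 8.79% in the other group. Relative to Ptprc alone, 8 T cell genes were higher (1.27% of all genes tested) and 1 was lower (0.223%) without overlap. Of the 12 NK markers, 8 were lower relative to the leukocyte markers and none was higher. With 1 pair left out the number of higher T cell genes was 10 to 19, but between 1.91% and 35.3% of all genes tested were then higher as well.

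B cell RNA was scarce. Of the 11 B cell genes, 8 had 0 counts in at least 1 library, and 3 were above the floor of 3 counts in all 6: Cd72, Ighm and Cd79a. Cd79a, the defining B cell marker here and a signalling chain of the B cell receptor, had 18, 24 and 29 counts in wt and 17, 7 and 10 counts in the libraries labelled flt3L-/-. The summed level of the 11 genes was 10.2, 22.5 and 28.6 CPM in wt and 7.61, 20.4 and 6.13 CPM in the other group. These groups overlapped, with log2 ratios of -0.43, -0.14 and -2.22 and a mean of -0.93 ± 1.13 (SD, n = 3 pairs). Without pair 3 the mean was -0.28. Cd72 and Ighm made up most of it, and the other 9 genes together had 61, 92 and 140 counts in wt and 26, 83 and 43 counts in the other group.

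**Figure D5:**
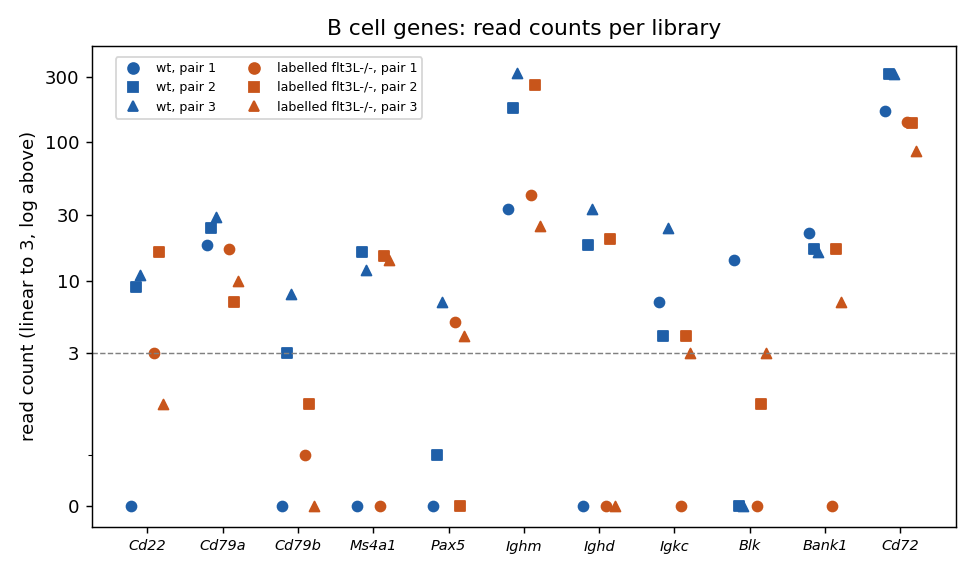
Read counts of the 11 B cell genes in each library, linear up to 3 counts (dashed line) and logarithmic above, coloured by group and shaped by pair. Only Cd79a, Ighm and Cd72 lie above the line in all 6 libraries, and for Cd79a and Cd72 all wt points lie above the others.

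Cd79a was lower in each pair, and its groups did not overlap, though the libraries of pair 1 were close, with 18 and 17 counts. At 0.700, 0.931 and 1.08 CPM in wt and 0.619, 0.297 and 0.396 CPM in the other group it did not pass the filter of the test. Fitted without a filter, where 2.37% of 36494 genes were lower without overlap, its log2 fold change was -1.08 ± 0.54 (SE), with an unadjusted p of 0.074 and an adjusted p of 0.99 in edgeR's quasi-likelihood test. Its partner Cd79b had 0, 3 and 8 counts in wt and 1, 2 and 0 counts in the other group, too few for a fold change.

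Cd72, an inhibitory coreceptor of B cells, had 6.57, 12.1 and 11.6 CPM in wt and 5.14, 5.86 and 3.44 CPM in libraries labelled flt3L-/-. Each wt library was above each library of the other group, against 2.92% of all genes tested that were lower without overlap. The log2 fold change was -1.05 ± 0.35 (SE), with an unadjusted p of 0.030 and an adjusted p of 0.97 in edgeR's quasi-likelihood test and an adjusted p of 0.79 in DESeq2. Leaving out 1 pair kept it between -1.40 and -0.70. Cd72 shares 41.6% of its exon bases with Tesk1, so part of its reads may be counted for the wrong gene. Cd22, another inhibitory coreceptor, had 0, 9 and 11 counts in wt and 3, 16 and 2 counts in the other group.

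The immunoglobulin genes were led by Ighm, the constant gene of IgM. Ighm had 33, 177 and 317 counts in wt and 42, 260 and 25 counts in the libraries labelled flt3L-/-, so it was higher in pair 2 and lower in pair 3, as most T cell genes were. Its log2 fold change without a filter was -0.73 ± 0.74 (SE). Ighd, the constant gene of IgD on mature naive B cells and the neighbour of Ighm on chromosome 12, had 0, 18 and 33 counts in wt and 0, 20 and 0 counts in the other group. Igkc, the kappa light chain, had 7, 4 and 24 counts in wt and 0, 4 and 3 counts in the other group. Both were thus at or near 0 in libraries of both groups. A count of 0 allows a true level of up to 3 counts, by counting error alone.

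The other B cell genes gave no order. Ms4a1, the gene of CD20, had 0, 16 and 12 counts in wt and 0, 15 and 14 counts in the other group, which is 0 in both sorts of pair 1. Bank1, a scaffold of B cell receptor signalling, had 22, 17 and 16 counts in wt and 0, 17 and 7 counts in the other group. Blk, a kinase of the Src family, had 14 counts in wt pair 1 and none in the other wt libraries, and 0, 2 and 3 counts in the other group. Pax5, the transcription factor that holds B cell identity, had between 0 and 7 counts in all libraries.

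Of 25 further genes of T cell receptor signalling and T cell identity, 19 were tested and none was called. Their median log2 fold change was -0.39, and 1 was lower and none higher at an unadjusted p under 0.05. The chemokine receptor Ccr7, among the most abundant of them per length, had a mean level of 5.14 CPM per kb of exon. Those with the smallest p were the transcription factor gene Gata3, the adaptor Sh2d2a and the transcription factor gene Tbx21, with log2 fold changes of -0.80 ± 0.29 (SE), -1.49 ± 0.59 and -2.24 ± 0.97. All of them were lower in each pair (11.5% of all genes tested), and Gata3 and Tbx21 did not overlap between the groups (2.92% lower without overlap). Tbx21, which NK cells also need, had 4.90, 5.74 and 9.83 CPM in wt and 1.82, 3.14 and 0.237 CPM in libraries labelled flt3L-/-. Gata3, which type 2 innate lymphoid cells also need, had 33.6, 20.6 and 19.9 CPM in wt and 12.4, 18.7 and 11.2 CPM in the other group. Foxp3 of regulatory T cells, named after its values were seen, was the 1 gene of this list higher in each pair and without overlap. Of all genes tested, 14.2% were higher in each pair and 3.53% higher without overlap, so 1 such gene among 19 tested does not stand out. It had 4.74, 4.85 and 5.62 CPM in wt and 6.08, 6.07 and 7.01 CPM in the other group. Its log2 fold change was 0.33 ± 0.23. It shares 31.5% of its exon bases with genes that include Flicr, Ccdc22 and Gm36995, whose reads cannot be told apart from its own. Its narrow range did not follow Cd3e, which ran from 1.90 to 25.9 CPM. The unadjusted p-values in edgeR's quasi-likelihood test were 0.072 for Tbx21, 0.040 for Gata3 and 0.056 for Sh2d2a, and the adjusted p was 0.97 for each.

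Of 25 further genes of B cell receptor signalling and B cell identity, 11 were tested, none was called, and the median log2 fold change was -0.11. The kinase gene Lyn and the transcription factor gene Ebf1 were the most abundant, at 33.4 and 20.2 CPM per kb of exon, and neither is particular to B cells. The lambda genes Iglc1 and Iglc3 had no reads. The costimulatory receptor Cd40 had 18.0, 20.5 and 21.3 CPM in wt and 23.1, 24.5 and 41.0 CPM in the other group. All its libraries labelled flt3L-/- were above the wt range, against 3.53% of all genes tested that were higher without overlap. The log2 fold change of Cd40 was 0.52 ± 0.20 (SE), with an unadjusted p of 0.048 and an adjusted p of 0.97 in edgeR's quasi-likelihood test. Btk and Plcg2, enzymes of B cell receptor signalling, were next by p, with log2 fold changes of -1.52 ± 1.01 and -0.50 ± 0.34.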

How the data were processed

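RNA of SP cells was isolated from 3 paired sorts and made into unstranded SMART-Seq v4 libraries. The authors mapped reads of 81 bases to mm10 with STAR 2.5.2a, kept reads with at most 10 hits, and counted reads starting in an exon of Ensembl release 88 with qCount. FastQC 0.11.3 is also named in the submitters' processing notes. The deposited values are raw counts per gene. Symbols, biotypes, exon lengths and shared exon bases came from GENCODE M21 on GRCm38, which held 50376 of the genes, and 224 were not matched. The shared bases ignore strand.

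Genes of protein-coding biotype were kept if 2 or more libraries exceeded 1 CPM, and the 13475 kept were tested in edgeR 4.0.16 on R 4.3.3 with TMM factors, glmQLFit and glmQLFTest (legacy = TRUE), the sorting date as a block and Benjamini-Hochberg adjustment. CPM values use the TMM-scaled totals of these genes. Members outside the filter were fitted with genes of every biotype and no filter. A prior count of 2 was added for the log2 differences of a pair, and standard errors came from the fold change and the F statistic. A pair shares its sorting date in the labels and the methods. After removal of group means, libraries of 1 date correlated at 0.180, 0.104 and 0.116 across genes, against -0.354 to 0.247 for libraries of different dates, so not every library correlated best with its own pair. No library was a copy of another, with a chi-square of 39.3 or more per degree of freedom between any 2. Total counts of 24370913 to 31145519 limit rare genes through counting error. Alternatives were other scalings, filters and dispersions, DESeq2 1.42.0, no block, and each pair left out.

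All members were named, and from each further list the 3 genes with the highest level per length and the 3 with the smallest p. Some of these genes are not reported here. Other genes were named after their values were seen. The members, the gene lists (further T cell, B cell and precursor genes, and markers of leukocytes, NK cells, type 2 innate lymphoid cells, macrophages and monocytes, dendritic cells, neutrophils, plasma cells and endothelial cells) and the tests were chosen with earlier results of these data known.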

Additional observations from a re-analysis of the deposited data

How the results depend on the processing

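The number of genes called was 0 under other scalings, filterByExpr, legacy = FALSE, no replicate block, a threshold of 0.1 and each pair left out (0 in all). It was 3 with every biotype and no filter and 21 with DESeq2. The number with an unadjusted p under 0.05 was 484, and it was 1122 without a filter, 262 without the replicate block and between 261 and 974 with 1 pair left out. Over the 20 fold changes of T and B cell genes, 2 of 140 values that kept all libraries changed sign, both without the replicate block: Cd3d at -0.16 and Cd3e at -0.22. The block changed no other sign. With 1 pair left out, 20 of 60 values changed sign, in 17 of the 20 genes. The ranges were Bcl11b (-0.51 to 1.32), Cd2 (-1.61 to 0.025), Cd247 (-1.02 to 0.0066), Cd27 (-0.84 to 0.085), Cd28 (-0.70 to 0.64), Cd3d (-0.37 to 1.34), Cd3e (-0.63 to 1.22), Cd3g (-0.74 to 0.39), Cd5 (-0.24 to 1.55), Cd6 (-0.80 to 0.43), Cd8a (-0.24 to 1.29), Cd8b1 (-0.75 to 0.67), Il7r (-1.20 to 1.09), Lat (-0.70 to 0.81), Lck (-0.96 to 0.23), Tcf7 (-0.69 to 0.67) and Zap70 (-1.50 to 0.13), while Cd4 (0.16 to 2.31), Cd72 (-1.40 to -0.70) and Il2rb (-2.55 to -1.08) kept theirs. The mean log2 ratio of the T cell sums lay between -1.19 and 0.11 and that of the B cell sums between -1.32 and -0.28 with 1 pair left out, and over other scalings, genes that passed the filter and the median over genes these were -0.78 to -0.20 and -1.05 to -0.52. The cause of these shifts was not tested. Depth limits the B cell genes, of which 8 had 0 counts in some library, and 3 pairs limit every test.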

Other observations

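Variable segments of antigen receptors, which are joined to a constant gene in each lymphocyte, were read as well. Of 144 variable genes of T cell receptors, 129 had at least 1 read in some library. They summed to 116, 463 and 815 counts in wt and 225, 612 and 249 counts in the libraries labelled flt3L-/-, on 45, 86 and 115 genes in wt and 67, 100 and 84 genes in the other group. As for most T cell genes, the sum was higher in pairs 1 and 2 and lower in pair 3, and more genes were read where more reads were found. Of 218 variable genes of immunoglobulins, 57 had a read, with 6, 14 and 22 counts in wt and 1, 19 and 32 counts in the other group.

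Most genes of lymphocyte precursors had few reads. Rag1 and Rag2, the recombinase that joins receptor segments, had 0 to 3 and 0 to 5 counts, and Dntt, which adds bases at the joints, had 2 counts in 1 library and 0 in the others. Vpreb1, a part of the receptor of B cell precursors, had 24, 35 and 52 counts in wt and 50, 41 and 44 counts in the other group, with a log2 fold change of 0.38 ± 0.43 (SE) and an unadjusted p of 0.41 in edgeR's quasi-likelihood test. It shares 9.01% of its exon bases with Top3b. Igll1, its partner, had 7, 4 and 12 counts in wt and 11, 14 and 14 counts in the other group, and Ptcra of T cell precursors had between 3 and 10 counts.

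The plasma cell markers Ighg1 and Igha had no reads, and Jchain had between 0 and 6 counts. The sum of 7 plasma cell markers, 67.5 to 121 CPM, came from Sdc1 and Prdm1. Dendritic cell markers summed to 208, 232 and 260 CPM in wt and 320, 188 and 250 CPM in the other group, mostly from Zbtb46, while Itgax was lower in each pair, with 3.81, 12.4 and 16.8 CPM in wt and 1.64, 5.60 and 0.317 CPM in the other group. Flt3 and Cd209a had log2 fold changes of -1.16 ± 1.28 (SE) and -1.72 ± 2.31. Both had 0 counts in wt pair 1 and were higher in the other library of that pair. Zbtb46 and Clec9a had log2 fold changes of 0.16 ± 0.20 and 0.11 ± 0.44, and Xcr1, fitted without a filter, had 0.46 ± 0.67. Dendritic cell markers thus had no common direction. Macrophage and monocyte markers summed to 135, 774 and 1965 CPM in wt and 496, 1120 and 364 CPM in the other group, mostly from Lyz2 and Ly6c2. These 2 genes differed in pair 3, with log2 differences of -4.50 for Lyz2 and 0.22 for Ly6c2. In that pair 8 of the 11 markers were lower (48.8% of all genes tested).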
